A study of Mus musculus with 12 samples.

Results

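The occupancy of CTCF was compared between brain, heart and lung of Ctcf R567W/R567W mouse embryos, which carry the R567W change of CTCF on both alleles. The 3 homozygous mutant ChIP-seq peak lists were chosen by their labels and compared with each other, and they held 82403 of the 183882 regions in the 6 lists of the series and came from 3 of its 12 samples. The labels gave C57BL/6 as the background of all embryos, and the study's methods name the substrain C57BL/6 N. All were at stage E18.5, and the change had been introduced by CRISPR/Cas9 editing. The other samples were the wild-type (Ctcf +/+) ChIP libraries of the same organs, which defined no set and served only for comparison, and the input libraries, whose own data were not analysed here. There was 1 ChIP library per organ and genotype, so no test was made between organs or genotypes, and all intervals are 95% intervals for counting error only. Neither organ nor genotype can be checked from peak positions, and whether 1 embryo or several gave the tissue was not given in the sources used here.

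CTCF recognises DNA through an array of zinc fingers, mostly at a core motif, and holds chromatin loops together with cohesin, which it stops in an orientation-dependent way. Some sites carry an additional upstream motif on the 5′ side of the core, which is contacted by the last zinc fingers of the protein, and R567 lies within the last of these fingers. Most strong CTCF sites are known to be occupied in many cell types, whereas weaker sites vary more between tissues. Each organ is a mixture of cell types, so a site occupied in fewer cells and a site occupied less often per cell cannot be told apart.

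A region is an interval called by the authors' peak caller, counted once however many summits it held. The mutant brain list had 38390 regions, the mutant heart list 11515 and the mutant lung list 32498. The relative depths recovered from the lists were 9.27, 8.01 and 7.998 reads per kb of effective genome, respectively. Regions of different lists that overlapped by at least 1 bp were joined into sites. A site with a region in each of the mutant lists is called common below, and a region whose site had no region of another organ is called brain-only, heart-only or lung-only. The median summit pileup, meaning the number of fragments stacked at the highest point of a region, was 34 reads in mutant brain, 31 in mutant heart and 47 in mutant lung.

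The sequences below show what the sites looked like. They are the reference sequence of GRCm38 from RefSeq, read 5′ to 3′ on the strand of the motif. The 19 bases in capitals are the best match to the core motif, and the 30 bases before them in lower case are the window in which the upstream motif was sought. The first group holds the common sites with the smallest sum of fold-enrichment ranks, which lie at the promoter of Rapgef1 (chr2:29619692-29619740, plus strand), at the promoter of Nipsnap2 (chr5:129724994-129725042, minus strand) and in an exon near Gdf15 (chr8:70629893-70629941, minus strand).
Rapgef1, common: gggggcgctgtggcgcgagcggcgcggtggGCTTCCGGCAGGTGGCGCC
Nipsnap2, common: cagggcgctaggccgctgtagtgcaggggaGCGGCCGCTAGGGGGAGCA
Gdf15, common: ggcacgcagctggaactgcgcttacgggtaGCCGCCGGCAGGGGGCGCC
The second group shows the strongest site of mutant brain and lung that lacked a mutant heart region (chr9:57485884-57485932, plus strand, intergenic, nearest to Gm6166), together with the strongest brain-only region, in an intron of Adgrb1 (chr15:74519673-74519721, plus strand), and the strongest heart-only region, at the Phkg1 promoter (chr5:129879186-129879234, minus strand).
Gm6166, brain and lung: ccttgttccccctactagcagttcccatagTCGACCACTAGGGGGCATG
Adgrb1, brain only: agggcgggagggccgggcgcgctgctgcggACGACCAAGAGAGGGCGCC
Phkg1, heart only: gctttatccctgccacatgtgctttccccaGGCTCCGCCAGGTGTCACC
The third group comes from the lists cut to equal length and shows examples, chosen after their values were seen, of sites that stood in the list of a single organ, the same in both genotypes, namely an intergenic site near Sncb for brain (chr13:54758602-54758650, plus strand), an intronic site of Ldb3 for heart (chr14:34574250-34574298, plus strand), and the promoters of Hoxa5 (chr6:52204656-52204704, minus strand) and Plcb3 (chr19:6969883-6969931, minus strand) for lung.
Sncb, brain: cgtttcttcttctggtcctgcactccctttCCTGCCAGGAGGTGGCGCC
Ldb3, heart: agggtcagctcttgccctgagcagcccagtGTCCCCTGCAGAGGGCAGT
Hoxa5, lung: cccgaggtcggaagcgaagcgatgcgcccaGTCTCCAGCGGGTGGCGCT
Plcb3, lung: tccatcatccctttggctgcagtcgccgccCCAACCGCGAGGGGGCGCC
The best upstream match had 1 mismatch at the Gm6166, Sncb and Plcb3 sites, 2 at Nipsnap2 and Phkg1, 3 at Rapgef1, Gdf15, Adgrb1 and Ldb3, and 4 at Hoxa5.

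The regions of the mutant lists merged into 43837 sites, and the heart list was almost entirely contained in the other lists. Common sites numbered 11212, or 25.6% of all sites (25.2 to 25.99%). Sites of brain and lung without heart were the largest class, with 15483 sites (35.3%). There were 11577 brain-only sites (26.4%) and 5359 lung-only sites (12.2%). By contrast, 50 sites were heart-only, 53 had regions of brain and heart alone and 103 had regions of heart and lung alone. Only 431 sites (0.983%) held more than 1 region of any list, so chains of joined regions were rare.

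Of the mutant heart regions, 98.7% overlapped a brain region, 99.1% a lung region and 98.2% both (97.9 to 98.4%). Brain regions overlapped a lung region in 69.7% of cases (69.2 to 70.2%) and a heart region in 29.4% (28.9 to 29.9%). Lung regions overlapped a brain region in 83.2% of cases (82.8 to 83.6%) and a heart region in 35.0% (34.5 to 35.5%). The wild-type lists held 36034 regions in brain, 21059 in heart and 44386 in lung. In them, 93.5% of heart regions overlapped both other organs, and the numbers of brain-only and lung-only sites stood in the opposite order, at 4845 and 12414.

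These shares followed the length of the lists. When each list was cut to the 11515 regions of highest −log10 q, 7973 of 15253 mutant sites were common (52.3%, 51.5 to 53.1%). Pairwise overlap then lay between 76.3% and 80.5% in every direction, and 69.8% of heart regions overlapped both other organs. The wild-type lists cut to the same length gave 7792 common sites of 15286 (51.0%, 50.2 to 51.8%). The difference between mutant and wild type was 1.30 percentage points (Newcombe 95% interval 0.176 to 2.42), and its direction was not stable, as it was -6.76 points when regions had to overlap by 50% of both and -2.00 points when the lists were cut by summit pileup. Cut by fold enrichment, which was low for its pileup in wild-type lung, it was 26.2 points. The −log10 q of wild-type lung was also low for its pileup. At the common sites of each genotype, its median was 107 in wild-type lung, with a median pileup of 129 reads. In mutant lung it was 175, with 123 reads.

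**Figure D1:**
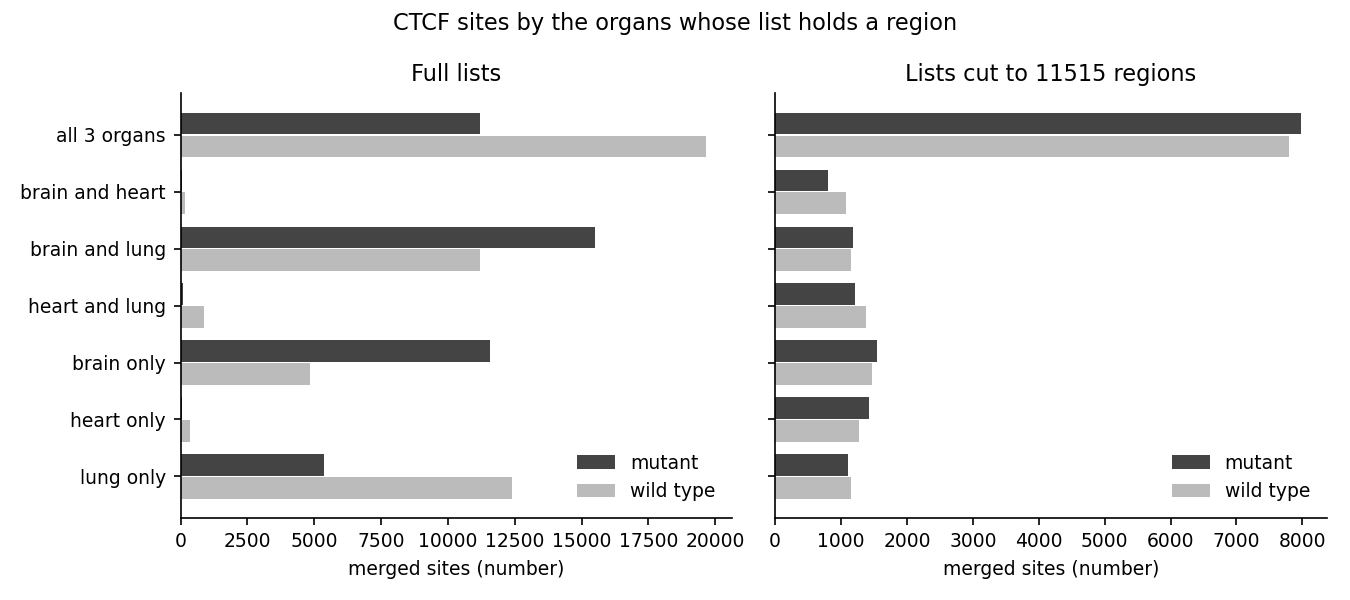
Number of merged CTCF sites (x axis) in each class of organs (y axis) for the mutant lists (dark bars) and the wild-type lists (light bars), with the full lists on the left and lists cut to 11515 regions on the right. With full lists, brain-only sites numbered 11577 in the mutant and 4845 in the wild type. At equal length they numbered 1540 and 1474, and common sites 7973 and 7792.

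Next, overlap was described by the strength of the region, taken as deciles of −log10 q within a list. In the weakest decile of mutant brain, 0.495% of 3839 regions had both a heart and a lung region (0.317 to 0.772%), and in the strongest decile 94.3% had both (93.5 to 95.01%). In lung, the share rose from 0.585% (0.375 to 0.911%) to 97.9% (97.3 to 98.3%). In heart, it was already 89.3% in the weakest decile and was 100% of 1151 regions in the strongest one. In these full lists, the lung partner of a brain region appeared at lower strength than its heart partner. In the fifth brain decile, 72.4% of regions had a lung region and 8.02% a heart region. The lung list was also the longer, with 32498 regions against 11515 in heart. At equal length, 79.7% of brain regions overlapped a lung region and 76.3% a heart region.

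**Figure D2:**
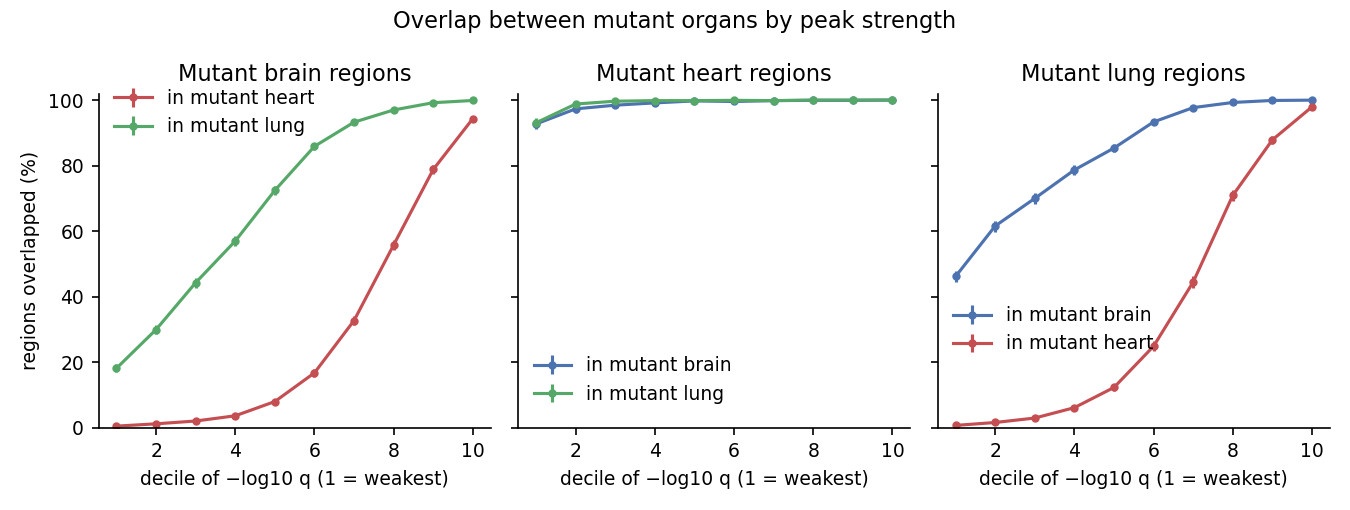
Share of mutant regions overlapped by a region of another mutant organ (y axis, %) in each decile of −log10 q of the list named above the panel (x axis, from weakest to strongest), with 95% Wilson intervals as bars. Heart regions were overlapped at every strength, whereas the share of brain and lung regions with a heart region reached 94.3% and 97.9% only in the strongest decile.

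The classes thus differed in peak height. Median summit pileup at common sites reached 111 reads for brain, 32 for heart and 123 for lung, against 33 and 34 reads in the brain and lung regions of the class without heart. It was 17 reads in brain-only regions, 11 in heart-only regions and 18 in lung-only regions. A −log10 q below 5 was found for 28.8% of brain-only regions, 70.0% of heart-only regions and 25.2% of lung-only regions, but for 0.293% of common brain regions and 4.05% of common heart regions.

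Among the strongest sites, absence from heart was rare. Of the sites in the top decile of both brain and lung, 2326 (98.9%) had a mutant heart region and 25 (1.06%) had none. All 25 had a core motif and a wild-type heart region, as did 96.8% and 99.7% of the sites with a mutant heart region. Promoters made up 3 of the 25 (4.17 to 29.96%) and 38.2% of the sites with a heart region (36.3 to 40.2%), and these intervals do not overlap. The median pileup of the 25 was 183 reads in mutant brain and 185 in mutant lung, compared with 213 and 217 reads at the sites with a heart region. The upstream motif with at most 1 mismatch stood at 16.0% of these 25 (6.40 to 34.7%) and at 6.53% of the 2251 core-motif sites with a heart region (5.58 to 7.63%), and these intervals overlap. More broadly, 48.8% of the brain regions in the class of brain and lung without heart overlapped a wild-type heart region. The wild-type heart list was the longer, with 21059 regions against 11515 in mutant heart.

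Core motifs were then located within 100 bp of each summit. The motif was present at 84.6% of mutant brain regions, 94.9% of heart regions and 87.5% of lung regions, and in 6.70 to 6.82% of windows placed 1100 bp away from the same summits. At common sites, 95.6% of brain regions, 95.3% of heart regions and 95.5% of lung regions held it. The share was 87.0% and 86.6% in brain and lung regions without heart, 70.7% in brain-only regions (69.9 to 71.5%), 73.2% in lung-only regions (72.02 to 74.4%) and 54.0% in heart-only regions (27 of 50, 40.4 to 67.0%). The difference was smaller at like peak height in brain and lung. After standardisation over deciles of fold enrichment, the difference between common and single-organ regions fell from 24.9 to 6.59 points in brain (1.07 to 12.1), and from 22.2 points it turned to -5.47 in lung (-10.6 to -0.353). In heart, where the single-organ class had 50 regions, it was 41.3 points before and 32.8 points after standardisation (17.1 to 48.4).

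At common sites with exactly 1 region per list, which numbered 10940, the organs shared not only the region but the position. The median distance between summits was 12 bp for brain and heart, 8 bp for brain and lung, and 11 bp for heart and lung. A core motif was called in all 3 lists at 10400 of them (95.1%), and in 98.7% of these the same motif on the same strand was the best match in all 3 lists. The motif lay on the plus strand in 49.6% of these cases (48.7 to 50.6%).

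The upstream motif was sought as TGCAGTNCC with at most 2 mismatches in the 30 bases 5′ of the core motif and on its strand, without overlap with the core. It was called at 22.9% of core-motif regions of common sites in brain (22.1 to 23.7%), and heart and lung gave 22.9% and 22.8%. The same letters in the mirrored window on the 3′ side were called in 12.3 to 12.4%. Brain regions without a heart region but with a lung region held the motif in 26.5% of cases (25.8 to 27.2%), brain-only regions in 24.7% (23.8 to 25.6%) and lung-only regions in 25.3% (23.9 to 26.6%). This order depended on list length and on what counted as shared. In the lists cut to 11515 regions, the brain share was 23.1% at common sites and 21.96% at brain-only regions. At sites of brain and lung without heart it was 23.8%. In lung it was 23.1% at common and 22.8% at lung-only regions. The mean difference over the 3 organs turned from -4.88 points (-10.5 to 0.751) to 0.945 (-0.515 to 2.40). With full lists, the difference was -1.83 points in brain, -2.41 in lung and -10.4 in heart (-29.3 to 4.30). The heart value rests on 27 heart-only regions with a core motif. The mean over the full lists was 0.0356 points with reciprocal overlap of 50% and -0.518 points with summits within 100 bp.

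Close matches were counted separately. With at most 1 mismatch, the motif was called at 6.35% of common brain regions with a core motif (5.91 to 6.83%), 11.4% of those shared with lung alone (10.8 to 11.9%) and 12.7% of brain-only regions (12.0 to 13.4%). Lung gave 6.42%, 11.3% and 10.6% for the corresponding classes. Between common sites and sites of brain and lung without heart, the difference was -5.01 points in brain (-5.71 to -4.30) and -4.93 in lung (-5.63 to -4.22). Standardised over deciles of fold enrichment, it was -3.52 points in brain (-5.10 to -1.95) and -5.26 in lung (-6.58 to -3.94). The wild-type brain list, classed by the wild-type organs, also had fewer close matches at its common sites (9.49%) than at sites of brain and lung without heart (16.7%), so this order was not particular to the mutant. In the lists cut to equal length, an alternative added after seeing the data, the close-match shares of mutant brain were 6.40% at common sites (5.88 to 6.96%), 7.56% at sites of brain and lung without heart (6.17 to 9.25%) and 6.70% in brain-only regions (5.50 to 8.13%), and these 3 intervals overlap. At sites of brain and heart without lung it was 3.04% (2.02 to 4.56%), below all of them, and with at most 2 mismatches 17.5% (14.9 to 20.5%), below the 23.1% of common sites (22.2 to 24.1%).

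The distance between both motifs was often the same at these close matches. A gap of 4 bp separated the upstream motif from the 19-base core at 60.4% of 684 common brain regions (56.7 to 64.0%), 87.6% of 1037 brain-only regions (85.4 to 89.4%) and 79.8% of 415 lung-only regions (75.6 to 83.3%). Pileup at common sites was compared between 2367 sites with an upstream motif of at most 2 mismatches and 7894 without one. The medians with and without it were 113 and 112 reads for brain, 33 and 32 for heart, and 130 and 125 for lung.

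**Figure D3:**
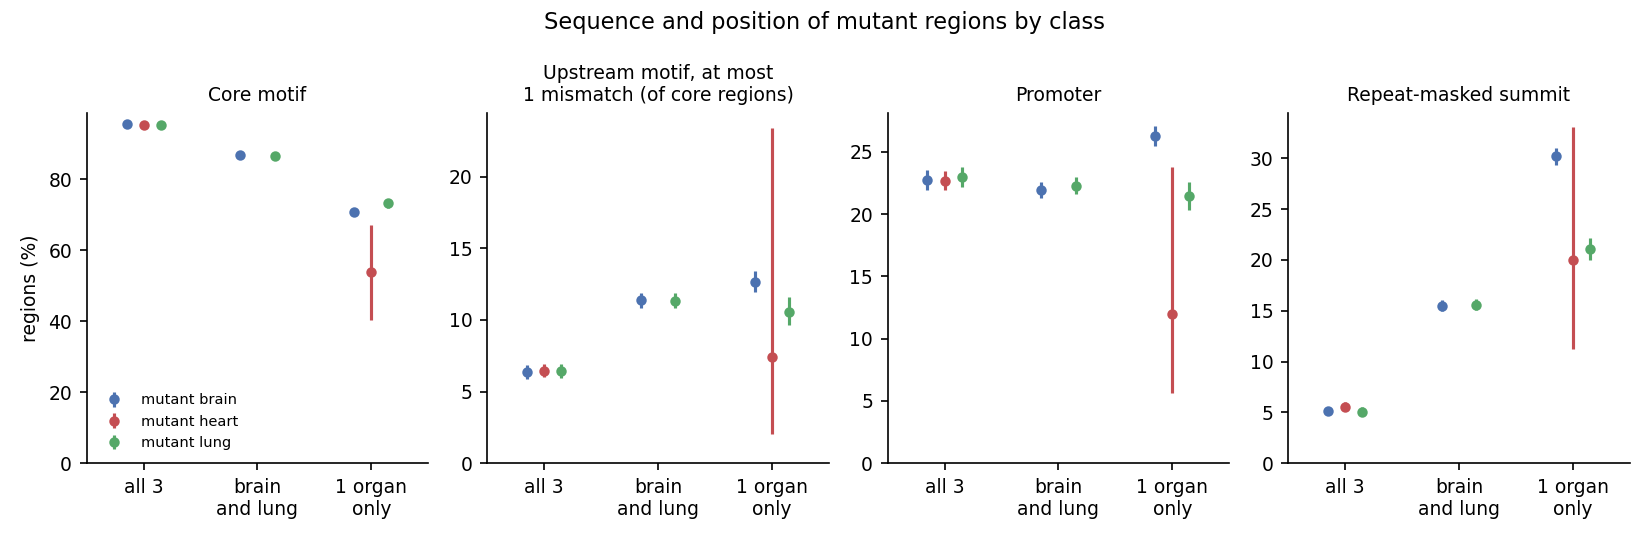
Share of mutant regions (y axis, %) with a core motif, with an upstream motif of at most 1 mismatch among core-motif regions, with a promoter position and with a summit in repeat-masked sequence, for common sites, sites of brain and lung without heart, and single-organ sites (x axis), with 95% Wilson intervals as bars. From common to brain-only regions, the core-motif share fell from 95.6% to 70.7% and the repeat-masked share rose from 5.15% to 30.2%, and the wide intervals of heart-only regions reflect their number of 50.

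The position of the regions relative to genes was described next. A promoter position, meaning a summit at most 1 kb away from an annotated transcription start, was found for 22.7% of common brain regions (21.96 to 23.5%), 26.3% of brain-only regions (25.5 to 27.1%), 23.0% of common lung regions (22.2 to 23.8%) and 21.4% of lung-only regions (20.4 to 22.6%). When regions of like fold enrichment were compared, common regions were at promoters more often than single-organ ones, by 10.2 points in brain (4.80 to 15.6) and 29.3 points in lung (24.2 to 34.3). This comparison was made only with overlap of at least 1 bp. It weighted deciles by their single-organ regions, and common regions were few among weak ones. In the weakest decile of −log10 q, 0.495% of brain regions and 0.585% of lung regions had both other organs. In the lists of equal length, 23.2% of common and 24.4% of brain-only regions were at promoters in brain, and 23.2% of common and 11.01% of lung-only regions in lung. Without standardisation, the mean difference over the 3 lists was 2.91 points (-0.189 to 6.01), but the lists did not share a direction. It was -3.52 points in brain (-4.63 to -2.41), 1.54 in lung and 10.7 in heart (-1.12 to 17.1), where 50 regions were heart-only. The direction of the mean also depended on what counted as shared. It turned to -13.5 points with reciprocal overlap of 50% and to -10.9 points with summits within 100 bp. Summits fell in repeat-masked sequence in 5.15% of common brain regions (4.76 to 5.57%), 15.5% of brain regions without heart but with lung and 30.2% of brain-only regions (29.4 to 31.0%). In lung, the share was 5.07% in common and 21.1% in lung-only regions (20.01 to 22.2%). The difference persisted at like fold enrichment, at -20.2 points in brain (-24.2 to -16.2) and -10.8 in lung (-14.3 to -7.42). The wild-type brain list showed the same order, with 8.26% in its common and 29.1% in its brain-only regions. In the mutant lists of equal length, the gap was narrower, with 4.27% in common and 7.08% in brain-only regions, and 4.30% in common and 7.04% in lung-only regions. The X chromosome held 1.14% of common brain regions, 3.17% of brain regions shared with lung alone and 2.16% of brain-only regions. The sex of the embryos was not given in the labels.

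Single-organ regions of the mutant were often present in the wild type. Of the brain-only regions, 41.6% overlapped a wild-type brain region (40.7 to 42.5%) and 38.4% a wild-type region of heart or lung. Of the lung-only regions, 68.9% overlapped a wild-type lung region (67.7 to 70.1%) and 33.8% a wild-type region of brain or heart. Among the 50 heart-only regions, 15 overlapped a wild-type heart region and 28 a wild-type region of brain or lung. In all, 55.3% of brain-only, 62.0% of heart-only and 71.3% of lung-only regions were overlapped in some wild-type organ, against 99.8% of common brain regions. These shares were not adjusted for the length of the wild-type lists, which was 36034 regions in brain, 21059 in heart and 44386 in lung.

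To ask whether organ differences were the same in both genotypes independently of list length, single-organ regions were taken from the lists cut to 11515. The cut was by −log10 q, which was low for its pileup in wild-type lung, and the comparison was not repeated with a cut by pileup. There were 1540 in mutant brain, 1426 in heart and 1108 in lung. These were not sites without any call elsewhere, since 90.7% of those of brain overlapped a region of the full mutant lung list, and 96.5% of those of lung overlapped the full mutant brain list. Wild-type brain-only regions of the same cut overlapped 22.7% of the mutant brain-only regions (20.7 to 24.9%), whereas wild-type heart-only and lung-only regions overlapped 2.21% and 1.36% of them. For mutant heart-only regions, 11.6% overlapped wild-type heart-only regions (10.1 to 13.4%), 3.02% brain-only and 4.77% lung-only regions. For mutant lung-only regions, 16.3% overlapped wild-type lung-only regions (14.3 to 18.6%), 6.41% heart-only and 1.90% brain-only regions. In each organ, the same organ of the wild type thus gave the highest share, with intervals that did not reach those of the other organs.

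**Figure D4:**
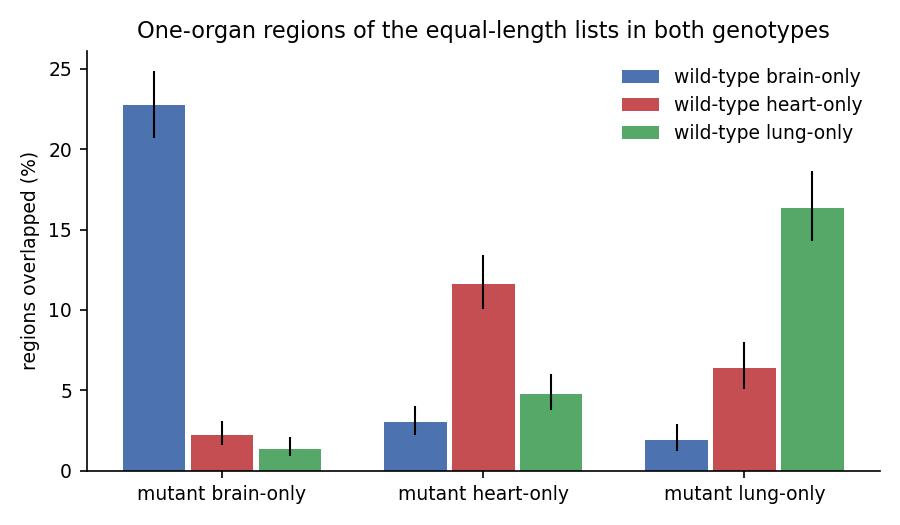
Share of the mutant single-organ regions of the equal-length lists (groups on the x axis) overlapped by wild-type single-organ regions of each organ (coloured bars, y axis in %), with 95% Wilson intervals. The matching organ gave the highest bar in each group, at 22.7% for brain, 11.6% for heart and 16.3% for lung.

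The 5 regions of highest fold enrichment that stood in the cut list of the same single organ in both genotypes are described for each organ, a rule set after the data were seen. The mutant heart list was not shortened by the cut, so the absence of a mutant heart region from the brain and lung choices is fixed by the rule. For brain, 350 regions qualified, of which 70 were at promoters (a share below the 24.4% of all brain-only regions of the cut list). The first was at a promoter of Gm27032, with 264 reads in mutant brain and 50 in mutant lung (chr2:180894533-180895461), and 153, 23 and 85 reads in wild-type brain, heart and lung. The Sncb promoter, at chr13:54765662-54766934, had a summit pileup of 267 reads in mutant brain and 48 in mutant lung. Sncb encodes beta-synuclein, a protein of presynaptic terminals. In the wild type, this promoter had 122, 22 and 108 reads in brain, heart and lung. A second region near Sncb, at chr13:54758020-54759034, had 236 reads in mutant brain and 27 in mutant lung. At the promoter of Apba2, which encodes a neuronal adaptor protein that binds the amyloid precursor protein, mutant brain had 220 reads and mutant lung 27 (chr7:64501335-64502417), and wild-type brain and lung had 121 and 76. The promoter of Ube2o, a gene of the ubiquitin system, had 218 reads in mutant brain and 47 in mutant lung (chr11:116581277-116581936).

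For heart, 166 regions qualified. Of these, 19 were at promoters (11.4%, 7.45 to 17.2%), against 22.5% of all heart-only regions of the cut list (20.4 to 24.8%). Of the first 5, 4 also had regions in mutant brain and lung. The first was intergenic, nearest to 2510039O18Rik, with 51, 37 and 24 reads in mutant brain, heart and lung (chr4:147960155-147960510). Intergenic regions nearest to Gm44887 (46, 32 and 74 reads, chr7:68580581-68581064) and nearest to Fgd3 (28, 32 and 59 reads, chr13:49326852-49327205) likewise had regions in every mutant organ. The fifth, an intronic region of Ldb3, a gene for a Z-disc protein of striated muscle, had 35 reads in mutant heart and 23 in mutant lung (chr14:34574085-34574550). No mutant brain region was present there, and in the wild type only heart had a region, with 31 reads. The promoter of Kcng2, which encodes a potassium channel subunit, had 34 reads in mutant heart, 33 in mutant brain and 54 in mutant lung (chr18:80363338-80363854). These 4 regions were placed in heart alone by their rank within each list, not by their pileup.

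For lung, 181 regions qualified. Of these, 25 were at promoters (13.8%, 9.53 to 19.6%), an interval that overlaps that of all lung-only regions of the cut list (11.01%, 9.30 to 12.99%). The 2 of highest fold enrichment were at homeobox genes. At the promoter of Hoxa5, a transcription factor needed for normal lung development, mutant lung had 192 reads and mutant brain 28 (chr6:52204424-52204983). Wild-type lung and brain had 173 and 30 reads, and heart had no region in either genotype. At the Hoxb5 promoter (chr11:96303088-96303440), mutant lung had 166 reads and mutant brain 39, and wild-type lung and brain had 189 and 59. The promoter of Plcb3, a phospholipase C gene, had 168 reads in mutant lung and 67 in mutant brain (chr19:6969568-6970369). An intergenic region nearest to Pigt had 143 reads in mutant lung and 28 in mutant brain (chr2:164517877-164518266), and an intronic region nearest to Cpvl had 148 and 29 (chr6:53954138-53954600).

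At common sites, the height of the summit varied between organs. Summit pileup divided by the genome background of its list, called relative pileup here, had a median of 54.4 (brain), 16.6 (heart) and 87.1 (lung) over the 10940 sites. These levels come from libraries that were not scaled to the spike-in chromatin, so only their variation between sites is described. Spearman's rho of relative pileup across sites was 0.67 for brain and heart, 0.72 for brain and lung, and 0.81 for heart and lung. The points share a library within each organ, and neighbouring sites are not independent. The interquartile range of the log2 ratio was 0.86 for brain over heart, 0.80 for brain over lung and 0.58 for heart over lung.

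The log2 ratios between organs were spread more widely in the mutant than in the wild type at the same sites. At 9969 sites with 1 region in each of the 6 lists, the interquartile range of the log2 ratio of brain over heart was 0.84 in the mutant and 0.58 in the wild type. For brain over lung it was 0.79 and 0.49, and for heart over lung 0.56 and 0.46. The ratio lay more than 2-fold from its median at 12.0% of sites in the mutant and 5.60% in the wild type for brain over heart, at 11.1% and 4.14% for brain over lung, and at 3.54% and 1.78% for heart over lung. The rank order of pileups did not follow this pattern throughout, since Spearman's rho in mutant and wild type was 0.66 and 0.67 for brain and heart, 0.71 and 0.76 for brain and lung, and 0.80 and 0.77 for heart and lung. Median pileup at these sites was 114, 32 and 128 reads in mutant brain, heart and lung, and 90, 36 and 159 reads in the wild type. With 1 library per organ and genotype, genotype and library cannot be told apart in this spread.

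The organ ratios were also compared between genotypes site by site. Across the 9969 sites, Spearman's rho between the mutant and the wild-type log2 ratio was 0.52 for brain over heart, 0.64 for brain over lung and 0.39 for heart over lung. When the common sites were split into quintiles of the mutant ratio of brain over lung, the median log2 ratio went from -1.53 to 0.04 in the mutant and from -1.39 to -0.66 in the wild type. For brain over heart it went from 0.77 to 2.46 and from 0.90 to 1.63, and for heart over lung from -2.90 to -1.75 and from -2.50 to -2.08. The quintiles were set on the mutant values, so their range is wider in the mutant by construction.

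Sites with relatively high brain pileup were more often promoters. In the quintile of highest mutant ratio of brain over heart, 43.2% of 2188 sites were at promoters (41.1 to 45.3%), against 12.5% in the lowest quintile (11.2 to 13.9%). For brain over lung, the shares were 34.2% (32.2 to 36.2%) and 13.9% (12.5 to 15.4%). For heart over lung the order was the reverse, at 19.3% in the highest and 30.5% in the lowest quintile. The quintiles also differed in peak height. From the lowest to the highest quintile of brain over heart, median mutant pileup went from 50 to 175 reads in brain and was 29 in heart in both. For brain over lung, it went from 58 to 136 reads in brain and from 124 to 88 in lung. For heart over lung, it went from 29 to 27 reads in heart and from 167 to 67 in lung. Whether the promoter shares followed the ratio or the peak height was not tested. GC content around the brain summit was 55.5 ± 11.5% (SD over sites) in the highest and 51.2 ± 7.82% in the lowest quintile of brain over heart. For brain over lung it was 51.2 ± 11.5% and 52.5 ± 7.63%, so GC content did not run with the promoter share there. For heart over lung it was 49.2 ± 10.04% in the highest and 56.2 ± 10.1% in the lowest quintile, in the same order as the promoter shares.

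**Figure D5:**
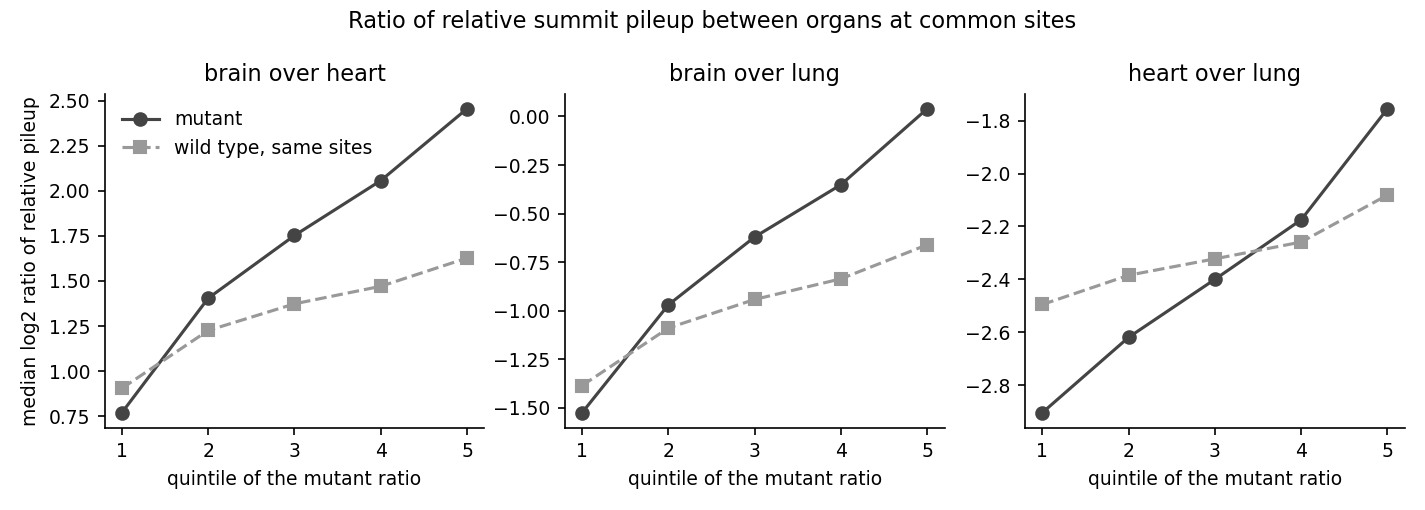
Median log2 ratio of relative summit pileup between 2 organs (y axis) in quintiles of the mutant ratio (x axis) at common sites, for the mutant (dark circles, 2188 sites per quintile) and for the wild type at those of the sites present in all 6 lists (grey squares). The wild-type medians rose with the mutant quintile for each pair of organs, for example from 0.90 to 1.63 for brain over heart, over a narrower range than the mutant medians, which define the quintiles.

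Individual sites chosen by rank show the range of values. The Rapgef1 promoter site (Rapgef1 encodes an exchange factor for the small GTPase Rap1) had 1181 mutant reads in brain, 211 in heart and 1228 in lung tissue. In the wild type it had 782, 216 and 1196 reads. The fold enrichment of the lung summit was 295 in the mutant and 16.7 in the wild type despite the similar pileups, since the background around peaks was raised in wild-type lung. Fold enrichments were therefore not compared between lists. At the Nipsnap2 promoter, mutant pileup was 1027, 183 and 977 reads in brain, heart and lung. The exon site near Gdf15, which encodes a stress-induced cytokine of the TGF-beta family, had 743, 197 and 952 reads.

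The strongest site of brain and lung without heart lay at chr9:57485627-57486177 near Gm6166, with 190 reads in mutant brain and 217 in mutant lung. In the wild type it had a region in every organ, with 156, 53 and 221 reads in brain, heart and lung. The next was on chromosome Y, in the part that pairs with X, in an intron of Gm47283 (chrY:90804783-90805328). It had 196 reads in mutant brain and 186 in mutant lung, and in wild-type heart it had 44. At both sites, the best upstream match had 1 mismatch. The strongest site of brain and heart without lung, in an intron of Lrrc4c (chr2:96585631-96586135), a gene for a synaptic adhesion protein, had 82 reads in mutant brain and 36 in mutant heart. The strongest site of heart and lung without brain, in an intron of the spectrin gene Sptbn5 (chr2:120084803-120085324), had 40 and 133 reads. The next sites of these pairs were intergenic, nearest to Gm5217 (78 reads in brain and 28 in heart, chr15:71240929-71241396) and nearest to 5033406O09Rik (34 reads in heart and 180 in lung, chr12:111946689-111947189). All of these sites lacking brain or lung had a region in all 3 wild-type organs.

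Among brain-only regions, the highest fold enrichments were at an intron of Adgrb1 (154 reads, chr15:74519158-74520190), a gene for an adhesion receptor of the brain, at the promoter of Tcerg1l (183 reads, chr7:138398308-138398951), and at the promoter of Kcnj6 (153 reads, chr16:94997267-94998066), which encodes a potassium channel subunit of neurons. Wild-type brain had 96, 110 and 99 reads there, and wild-type lung 119, 57 and 21. The Kcnj6 region had no core motif. The highest heart-only region was at the promoter of Phkg1 (32 reads, chr5:129879057-129879334), which encodes the catalytic subunit of muscle phosphorylase kinase. The wild type had a region there in each organ, with 22, 33 and 73 reads in brain, heart and lung. A heart-only region without a core motif lay in an intron of Hand2os1, the transcript next to the cardiac transcription factor gene Hand2 (21 reads, chr8:57314344-57314677). Wild-type heart had 32 reads there, and wild-type brain and lung had 20 and 31. Lung-only regions were led by an intergenic site near the interleukin receptor gene Il20ra (148 reads, chr10:19693013-19693532), at which wild-type lung had 133, brain 36 and heart 32 reads. The promoter of Myof, a membrane repair gene, had 118 reads in mutant lung (chr19:38043430-38044155) and 116 in wild-type lung. The remaining regions named by the rule were an intergenic heart-only region nearest to Cdh13 (23 reads, chr8:118237097-118237351) and an intronic lung-only region near Gm35853 (120 reads, chr15:101327199-101327609). Each of these single-organ sites had a wild-type region in the same organ and in at least 1 other organ.

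Lastly, promoter regions were counted at genes that mark the organs, with 30 genes per list. Of all 21938 protein-coding genes, 34.0% had a promoter region in mutant brain, 10.2% in mutant heart, 27.4% in mutant lung and 10.0% in all 3, while 10.1% had one in brain only, 0.0365% in heart only and 3.57% in lung only. Of the brain genes, 12 had a promoter region in brain, 2 in heart and 5 in lung. Gad1, the gene of a GABA-synthesising enzyme, and Nes, a marker of neural progenitors, had one in every organ. Gad1 had 209, 33 and 91 reads in brain, heart and lung, and Nes had 126, 41 and 129 reads. A region in brain only was present at 7 of the 30 genes. They included Olig2, Pax6 and Sox2, which encode transcription factors of neural progenitors and glia, Reln, which encodes a secreted guide of neuronal migration, and Syn1, a synaptic vesicle gene. The brain pileups of these named genes were low, from 11 reads at Reln to 28 at Olig2.

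Of the heart genes, 6 had a promoter region in brain, 3 in heart and 6 in lung. Ryr2, the calcium release channel of cardiac muscle, had 216, 39 and 162 reads in brain, heart and lung, and Ttn, which encodes the sarcomere protein titin, had 29, 26 and 38 reads. The third gene with a heart region was Kcnq1, a cardiac potassium channel gene, with 10 reads in heart and 40 in lung at separate regions. Hcn4, a pacemaker channel gene, had a region in brain only, with 58 reads. None of the 30 heart genes had a region in heart only. Of the lung genes, 9 had a promoter region in brain, 4 in heart and 8 in lung. Regions in every organ were present at Abca3, a surfactant lipid transporter gene, with 364, 66 and 229 reads in brain, heart and lung, and at Muc1, with 223, 47 and 233 reads. They were also present at Foxj1, a regulator of ciliated cells, with 83, 23 and 63 reads, and at Wnt7b, which encodes a signalling protein of lung epithelium, with 198, 40 and 206 reads. Foxf1, a transcription factor of lung mesenchyme, had a region in lung only, with 10 reads, and Etv5 and Hopx had one in brain only, with 33 and 11 reads. Etv5 encodes a transcription factor of the distal lung epithelium.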

How the data were processed

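CTCF ChIP-seq peak lists of 3 mutant and 3 wild-type organs were used, 1 library per list. Chromatin of HEK293T, a human embryonic kidney line, had been added as a spike-in. According to the methods and submitters' notes, the authors removed adapters (Trim Galore), aligned the reads (Bowtie2) to joint mouse (mm10) and human (hg38) sequence, kept uniquely mapped reads and called peaks with MACS2 without pooling libraries. Which input served as control was not stated, and peak lists carry no spike-in scaling. The deposited score is a whole number made from the q-value and played no part. Fold enrichment, as deposited by the authors, is a ratio of summit pileup to local background, each with 1 added. The deposited p-values and q-values are −log10 values. Whole-number pileups were recovered by solving fold enrichment and p-value together, which solved 100% of lines, and the genome background of a list is its lowest local background.

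A region with several summits entered as 1 region, represented by its most enriched summit. Genes came from basic GENCODE M21 on GRCm38, whose chromosome lengths all positions fitted. The core motif was scored with a 19-column matrix learned from the 2000 strongest wild-type brain peaks and called on both strands at a p of at most 1e-04. Repeat-masked sequence is that in lower case in the RefSeq genome. Shares have 95% Wilson intervals, plain differences 95% Newcombe intervals and standardised differences 95% normal intervals. Intervals of means over the 3 organs combine those of the lists as if the lists were independent. The lists share the common sites, so they are not independent. Standardised differences used deciles of fold enrichment with at least 20 regions of both classes, weighted by the regions of the class set against the common one. Named sites were the 3 common sites and, for each pair of organs, the 2 sites with the smallest sum of fold-enrichment ranks, and the 3 single-organ regions of highest fold enrichment in each list. From the gene lists, genes with a promoter region in a single organ or in all 3 were named, apart from some that are not reported here. The members and lists were chosen with earlier results of these data known. The alternatives tried comprised a −log10 q minimum of 5, reciprocal overlap of 50%, summits within 100 bp, lists cut to equal length by q-value, fold enrichment or pileup, autosomes, a stricter core motif, a matrix from mutant brain, fewer upstream mismatches, the mirrored window, promoters within 2 kb and standardisation. The scripts were tested on simulated data. The scripts ran under Python 3.11.15 with pysam 0.24.0, scipy 1.17.1, numpy 2.4.6, matplotlib 3.10.9 and pandas 2.3.3.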

Additional observations from a re-analysis of the deposited data

How the results depend on the processing

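Of 65 alternative values, 23 lay within the 95% counting interval of the main value. Outside it, 35 kept the sign of the main value and 7 had the opposite sign. Among the 23, the upstream motif difference of -4.88 points became 0.0356 with reciprocal overlap of 50%, -0.518 with summits within 100 bp and -0.105 in the mirrored window. Each organ had 1 library, so leaving out a replicate was not possible, and no threshold of a test was involved. No paired analysis was possible because no replicate numbers are shared between groups with more than 1 library. With a −log10 q of at least 5, the common share of sites was 27.7%, the share of heart regions in both others 98.8%, that of brain regions in lung 73.9% and that of lung regions in brain 84.8%. The difference between mutant and wild type at equal length was 3.08 points, and the excess of common over single-organ regions was 20.5 points for the core motif and 6.77 for promoters. With reciprocal overlap of 50%, the same values were 20.7%, 69.5%, 63.03%, 74.5%, -6.76, 18.1 and -13.5. With summits within 100 bp, the overlaps were 24.4%, 95.2%, 67.8% and 80.1%, and the promoter difference was -10.9 points. Both overlap rules turned the direction of the promoter difference, and reciprocal overlap and lists of equal length that of the upstream motif difference. With lists cut to equal length by q-value, the overlaps were 52.3%, 69.8%, 79.7% and 79.8%, the core motif difference 7.08 and the upstream motif difference 0.945 points. Cut by fold enrichment, they were 50.5%, 68.1%, 78.4%, 78.6%, 7.17 and 1.05, and the difference between genotypes was 26.2 points, with the lowered fold enrichments of wild-type lung described above. Cut by summit pileup, a choice made after seeing the data, they were 52.5%, 70.02%, 79.7%, 79.8%, 7.13 and 0.941, and the difference between genotypes was -2.00 points. A stricter core motif gave a core difference of 44.4 points. Standardisation over fold enrichment gave 11.3 points for the core motif and 20.6 for promoters. Apart from the construction of the equal-length lists, the cause of these changes was not tested. The mean differences over the 3 lists were 29.5 points for the core motif, -4.88 for the upstream motif and 2.91 for promoters. They give the 50 heart-only regions, of which 27 had a core motif, the same weight as the larger brain-only and lung-only classes. Heart alone gave 41.3, -10.4 and 10.7 points. Brain gave 24.9, -1.83 and -3.52 points, and lung 22.2, -2.41 and 1.54. The values of brain and lung were therefore given apart in the text. Weak regions rest on few reads, which limits the single-organ classes and also the heart regions shared with brain alone (median pileup of 14 reads).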
